A study of Mus musculus with 18 samples.

Results

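The monooxygenases described here are enzymes with which the lung oxidises foreign chemicals: Cyp2f2, Cyp2e1, Cyp2b10, Cyp2s1, Cyp2d22 and Cyp4b1 of the cytochrome P450 family, their electron donor Por, and the flavin monooxygenases Fmo1 and Fmo2. The genes were chosen by name, as 9 genes for which only probe sets annotated to a single symbol were accepted, and each gene is given by its probe set of highest mean over 18 arrays. Of the 9 genes, 8 had such a probe set, out of 18193 genes in all, and these 8 were among the 13434 genes tested. Por had no probe set of a single symbol in the annotation used here, so no value is given for it.

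Gene expression was measured in right lung lobes from female mice of the B6C3F1 cross, which were 5 weeks old when a 13-week exposure began and 18 weeks old at sampling. Each of the 6 groups had 3 animals, and each animal its own array. The feed groups received 2000 ppm of 1,5-naphthalenediamine (NDA), 2000 ppm of N-(1-naphthyl)ethylenediamine dihydrochloride (NEDD) or 8187 ppm of pentachloronitrobenzene (PCNB) on 7 days a week, and the feed control received none of them. The gavage groups received 240 mg/kg of 2,3-benzofuran, or corn oil alone as the corn oil control, at 5 ml/kg on 5 days a week. NDA and benzofuran are the chemicals that the study lists as lung carcinogens and NEDD and PCNB those that it lists as negative, and the question in its title is whether expression after a short exposure can tell the classes apart. NDA, NEDD and PCNB share 1 set of feed control arrays. The number of arrays, 3 a group, limits the precision of every value. A whole lobe holds many cell types, and in such tissue fewer cells of a type and less RNA per cell cannot be told apart.

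Cytochrome P450 enzymes use a heme iron and electrons from P450 reductase, the product of Por, to insert oxygen into a substrate, whereas flavin monooxygenases carry their own flavin and oxidise mainly nitrogen and sulfur atoms. In the mouse lung much of this activity sits in the club cells of the airways, and for several lung toxicants the oxidised product, not the parent compound, damages the cell. Club cell damage by naphthalene through Cyp2f2 and by 4-ipomeanol through Cyp4b1 are known examples.

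Markers of the lung were present, and so were some of other tissues. All 15 club cell markers, all 11 measured alveolar type 2 markers and all 13 measured ciliated cell markers passed the filter for testing, and so did all 10 cardiac muscle markers, led by Myl7, Actc1 and Myh6, 6 of 8 measured adipocyte markers and 4 of 11 measured hepatocyte markers. The 4 hepatocyte markers lay near the filter: their means over 18 arrays ran from 4.93 (Alb) to 5.76 (Ttr), and the filter percentile from 4.97 to 5.10. Pearson correlations between arrays ran from 0.975 to 0.996 over 153 pairs, and 1 array, that of benzofuran animal 10, stood apart on the first principal component, at 87.3 against -16.8 to 4.14 on the others. Its actin control probe sets also differed most between the 3' and 5' ends, by 0.906, against 0.333 to 0.726 on the others, and the benzofuran differences of the members are given with and without it. This actin difference was 0.432, 0.333 and 0.334 on the NDA arrays and 0.580, 0.625 and 0.726 on the feed control arrays, without overlap. The part of RNA quality in the differences between NDA and feed control was not tested.

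No monooxygenase passed the test for any of the 4 chemicals against its own control, and the sizes were small: apart from Cyp2e1, every member moved by less than 0.45 on the log2 scale. The clearest pattern was in Cyp2s1, which was higher in all NDA and benzofuran lungs than in all other lungs and passed the test in the contrast of the lung carcinogens with the negative chemicals and in NDA against NEDD. Cyp2f2, the naphthalene-activating enzyme of club cells, was lowest in the 3 NDA lungs without passing the test. Cyp2e1 varied most between animals of the same group.

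**Figure D1:**
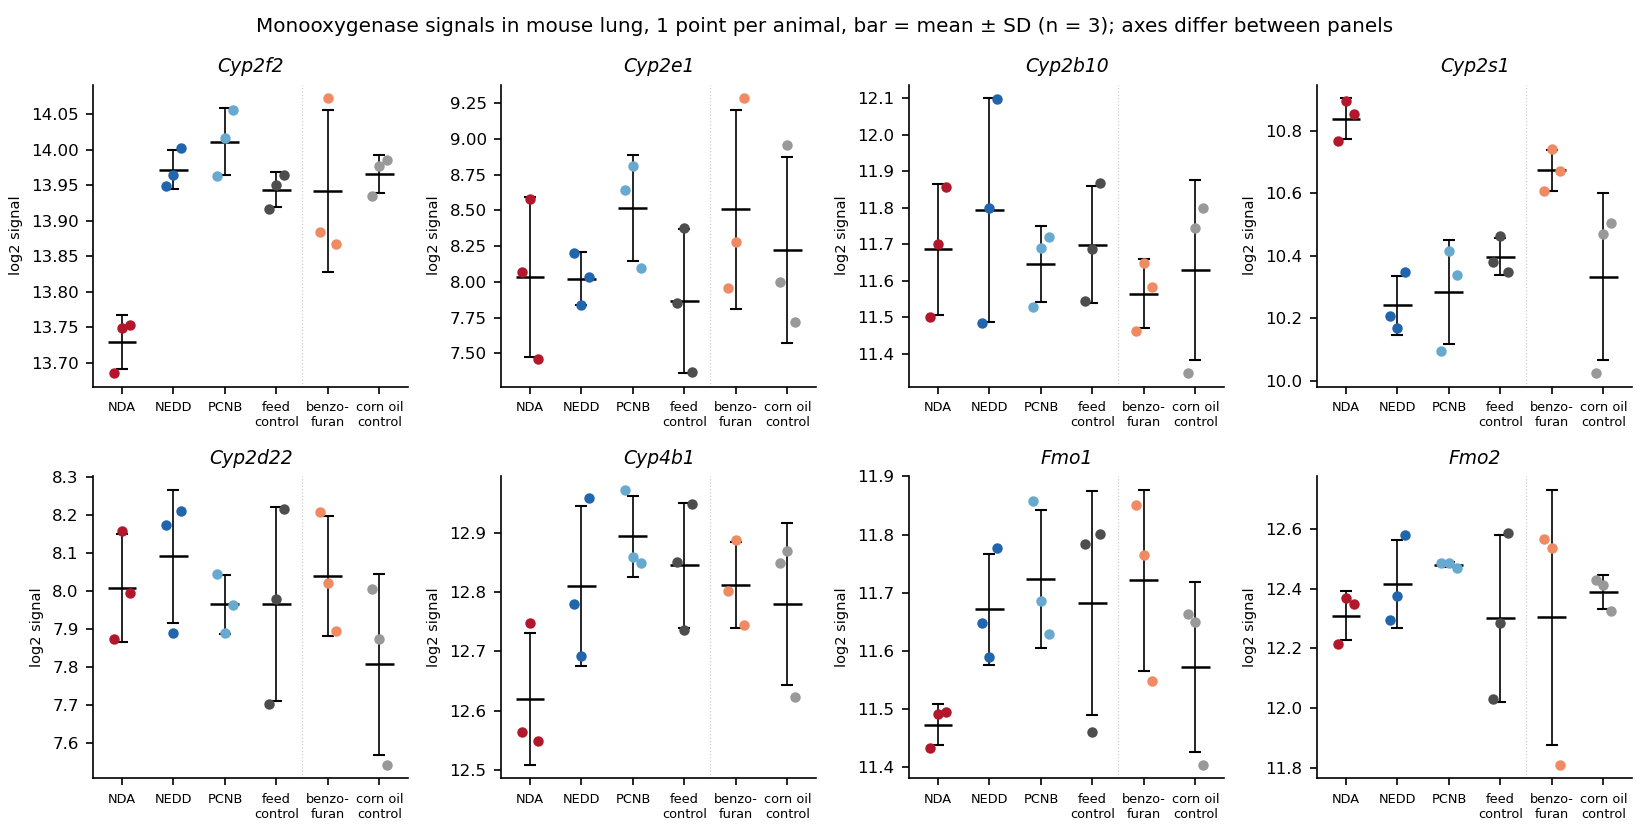
Log2 signal of each monooxygenase on every array, 1 point per animal, with the group mean and SD (n = 3). Cyp2s1 sits at 10.61 or above on the 6 NDA and benzofuran arrays and at 10.51 or below on the other 12, Cyp2f2 at 13.75 or below on the NDA arrays, and the points of the other members overlap between most groups.

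Cyp2s1 is a P450 of epithelia outside the liver, among them the airways, and is known as a gene that the aryl hydrocarbon receptor can induce. Its log2 signal was 10.77, 10.90 and 10.85 in the NDA lungs, 10.21, 10.17 and 10.35 in the NEDD lungs, 10.10, 10.41 and 10.34 in the PCNB lungs, and 10.38, 10.46 and 10.35 in the feed control lungs. In the benzofuran lungs it was 10.61, 10.74 and 10.67, against 10.02, 10.47 and 10.51 in the corn oil control lungs. All NDA arrays lay above all others, the benzofuran arrays lay between them and the rest, and the NEDD, PCNB and control arrays overlapped one another. Of the 13434 genes tested, 1.44% had all 6 NDA and benzofuran arrays above the other 12, and 1.03% had all NDA arrays above the other 15.

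The order of the Cyp2s1 group means was NEDD (10.24 ± 0.09), PCNB (10.28 ± 0.17), corn oil control (10.33 ± 0.27), feed control (10.40 ± 0.06), benzofuran (10.67 ± 0.07) and NDA (10.84 ± 0.07, SD, n = 3 each). The lowest 4 groups overlapped with their neighbours in this order, and neither benzofuran with feed control nor NDA with benzofuran did.

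Against its own control, Cyp2s1 was 0.44 ± 0.12 higher (log2 fold change ± SE) with NDA, a fold of 1.36, with an adjusted p of 0.0894 (limma, Benjamini-Hochberg over all genes tested). With benzofuran it was 0.34 ± 0.12 higher, a fold of 1.27, with an adjusted p of 0.134. Neither passed the threshold of 0.05, although the arrays did not overlap in either comparison. Fits with array weights called both (adjusted p = 0.0164 and 0.0412), and a fit to the NDA and feed control arrays alone called the first (0.0356). Arrays higher without overlap were found for 9.48% of genes with NDA and 13.1% with benzofuran. Without benzofuran animal 10 the benzofuran difference was also 0.34. Without corn oil control animal 22, whose 10.02 was the lowest value of Cyp2s1, it was 0.19. The differences with NEDD, -0.16 ± 0.12, and PCNB, -0.11 ± 0.12, had adjusted p-values of 0.656 and 0.9995 in limma.

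To compare the chemical classes, each effect was first taken against its control arrays, and the averaged effect of NEDD and PCNB was subtracted from the averaged effect of NDA and benzofuran. In it Cyp2s1 rose, with a difference of effects of 0.53 ± 0.10, a 1.44-fold change (95% interval 1.24 to 1.68) and an adjusted p of 0.00707 in limma. This was the 1 monooxygenase of 8 called in that contrast, where 3.49% of all genes were called and 3.16% were called higher. Of the 8, 2 had an unadjusted p under 0.05 (Cyp2s1 and Cyp2f2), against 18.8% of all genes. Cyp2s1 was called under all 24 alternative settings, with differences from 0.45 to 0.57 when single arrays were left out. This contrast takes all 6 groups, so the setting with the compared groups alone repeats the main fit. Cyp2s1 has 1 probe set, so the mean of all probe sets leaves its values unchanged. The NDA effect and the benzofuran effect on Cyp2s1 differed by 0.10 ± 0.17 (adjusted p = 0.867, limma), with a 95% interval of -0.25 to 0.46. The SE of the class contrast comes from the spread between animals within groups, not between chemicals. Its p-values therefore speak of these 4 chemicals and not of carcinogens as a class.

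NDA and NEDD are both naphthylamines, with a second amino group on the ring in NDA and an aminoethyl chain on the amino nitrogen in NEDD. Both were fed at 2000 ppm. In this direct comparison Cyp2s1 was 0.60 ± 0.12 higher with NDA, a 1.51-fold change (95% interval 1.27 to 1.80), with an adjusted p of 0.00841 in limma. It was the 1 of 8 monooxygenases called, against 2.12% of all genes called and 1.88% called higher, and 2 members and 12.2% of genes had an unadjusted p under 0.05. The call was lost without NDA animal 4 (0.57, adjusted p = 0.0506) and without NEDD animal 12 (0.58, adjusted p = 0.0504), while the size hardly moved. The other monooxygenases did not pass the test between NDA and NEDD, and their 95% intervals of the log2 difference were widest for Cyp2e1 (-0.75 to 0.77) and narrowest for Cyp2f2 (-0.41 to -0.07). Arrays without overlap between NDA and NEDD were higher for 1 member and lower for 2 (Cyp2f2 and Fmo1), against 13.2% and 10.8% of all genes.

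**Figure D2:**
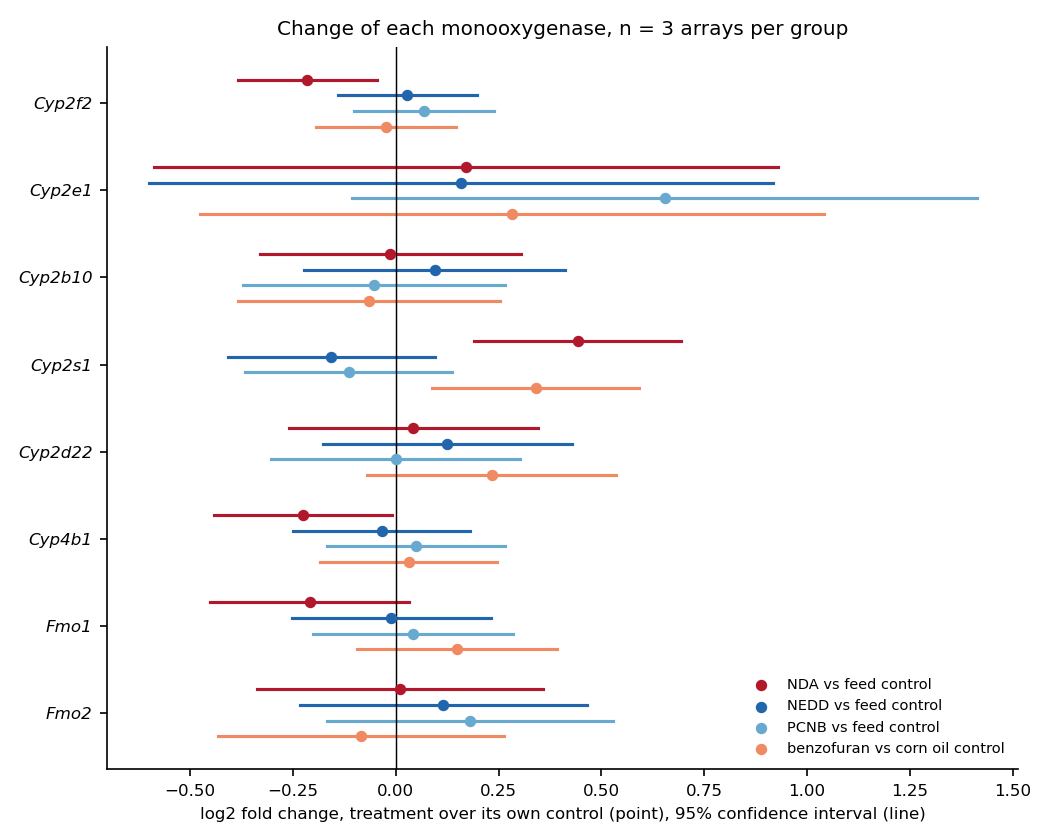
Log2 fold change of each monooxygenase in treated over control lungs, as the point, with its 95% confidence interval as the line (limma, n = 3 arrays per group). Cyp2s1 lies right of 0 with NDA (0.44) and benzofuran (0.34), Cyp2f2 and Cyp4b1 lie left of 0 with NDA (-0.21 and -0.23), and the Cyp2e1 intervals are the widest.

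Cyp1a1, the P450 by which aryl hydrocarbon receptor activity is usually read, had another order of groups than Cyp2s1. Its log2 signal averaged 11.81 with NDA, 9.09 with NEDD and 9.55 with PCNB, against 5.85 in feed control lungs, and all 3 feed chemicals were called higher (adjusted p = 1.046e-07, 0.0119 and 0.00118 in limma). With benzofuran it averaged 7.05, against 6.58 in corn oil control lungs, and was not called (adjusted p = 0.593). Both genes had their highest group mean in the NDA lungs, where Cyp2s1 averaged 10.84. Cyp2s1 arrays lay above their controls in the benzofuran lungs, where Cyp1a1 was not called. They overlapped their controls in the NEDD and PCNB lungs, where Cyp1a1 was called. The part of the aryl hydrocarbon receptor in the Cyp2s1 differences was not tested. The NEDD call of Cyp1a1 was lost without NEDD animal 14 or 15 or feed control animal 28, and the NEDD and PCNB calls were lost in fits to the compared groups alone.

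In the RefSeq genes of GRCm38.p6, Cyp2s1 lies on chromosome 7 between Axl and Cyp2b10, and its start region is shown with that of its neighbour Cyp2b10, which was not called, and that of Cyp2f2, a further lung P450 on the same chromosome. The windows run from 250 bases before to 50 after the annotated start, 5′ to 3′ on the strand of the gene, and the capitals in Cyp2b10 mark the core of the response element of the aryl hydrocarbon receptor, GCGTG or its reverse complement. They lie at chr7:25816476-25816775 on the minus strand for Cyp2s1, chr7:25897408-25897707 on the plus strand for Cyp2b10 and chr7:27119705-27120004 on the plus strand for Cyp2f2.
Cyp2s1: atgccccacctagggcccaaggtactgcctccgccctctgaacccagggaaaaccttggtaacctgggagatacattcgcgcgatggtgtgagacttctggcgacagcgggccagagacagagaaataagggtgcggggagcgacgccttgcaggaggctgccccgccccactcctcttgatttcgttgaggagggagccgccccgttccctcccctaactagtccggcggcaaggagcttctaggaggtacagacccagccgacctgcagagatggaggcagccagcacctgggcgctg
Cyp2b10: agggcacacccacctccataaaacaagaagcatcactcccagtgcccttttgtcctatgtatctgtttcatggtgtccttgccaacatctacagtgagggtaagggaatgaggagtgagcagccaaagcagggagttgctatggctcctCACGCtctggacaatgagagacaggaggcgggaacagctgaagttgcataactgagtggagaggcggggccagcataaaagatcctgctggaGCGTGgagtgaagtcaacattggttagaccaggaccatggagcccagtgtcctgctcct
Cyp2f2: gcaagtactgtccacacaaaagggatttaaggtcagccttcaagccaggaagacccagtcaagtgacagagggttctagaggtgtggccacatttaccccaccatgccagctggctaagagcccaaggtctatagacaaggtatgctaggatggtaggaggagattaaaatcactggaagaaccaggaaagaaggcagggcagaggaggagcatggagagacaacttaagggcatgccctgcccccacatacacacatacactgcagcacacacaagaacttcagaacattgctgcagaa

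On both strands 4 motifs were searched: GCGTG, the antioxidant response element core TGACNNNGC, the TATA box TATAAA and the forkhead core TGTTTAC. Of 32851 RefSeq promoter windows of the same length, 32.4%, 12.4%, 13.6% and 3.6% held them. The windows of Cyp2s1, Cyp2f2 and Cyp4b1 held none of the 4, that of Cyp2b10 held GCGTG at -101 and -9 from the start, that of Cyp2e1 held TATAAA at -31, and that of Por held GCGTG at -202, -62 and -24. Fmo2 has 2 windows, of which 1 held TGTTTAC at -28 on the other strand and the other held none. No hit overlapped another motif. The Cyp2s1 window was 63.0% G and C, against a median of 52.7% over all windows. The letters of these windows are a description of 300 bases only.

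The genes next to Cyp2s1 were not called in the contrast of the classes. Axl on one side had a difference of -0.18 ± 0.09 (adjusted p = 0.296, limma) and Cyp2b10 on the other -0.06 ± 0.13 (adjusted p = 0.84).

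Cyp2f2 is the club cell P450 that turns naphthalene into a reactive epoxide. Its log2 signal was 13.69, 13.75 and 13.75 in the NDA lungs, 13.95, 13.96 and 14.00 in the NEDD lungs, 13.96, 14.02 and 14.06 in the PCNB lungs, and 13.92, 13.95 and 13.96 in the feed control lungs. In the benzofuran lungs it was 13.88, 14.07 and 13.87, against 13.94, 13.98 and 13.99 in the corn oil control lungs, a difference of -0.02 ± 0.08, and of 0.01 without benzofuran animal 10. The 3 NDA arrays lay below the other 15, as they did for 0.722% of all genes, and the other groups overlapped. The NDA difference from feed control was -0.21 ± 0.08, a fold of 0.862 (95% interval 0.766 to 0.969), with an unadjusted p of 0.0162 and an adjusted p of 0.303 in limma. Lower arrays without overlap between NDA and feed control were found for 11.6% of all genes. In NDA against NEDD the difference was -0.24 ± 0.08 with an adjusted p of 0.165. The signals lay near the upper end of the deposited range, whose highest value was 14.78, and compression of differences there was not tested.

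The club cell markers of highest mean signal were Scgb1a1 and Scgb3a2, secretoglobins of the airway, and Hp, haptoglobin. Scgb1a1 had log2 signals of 14.30, 14.33 and 14.32 in the NDA lungs, against 14.47, 14.51 and 14.42 in the feed control lungs, a difference of -0.15 ± 0.07 (adjusted p = 0.502, limma). Hp also had all NDA arrays below the feed control arrays (-0.10 ± 0.09, adjusted p = 0.769), and Scgb3a2 overlapped (-0.07 ± 0.08, adjusted p = 0.82). Of all 15 club cell markers, 5 were positive and 10 negative, 1 was called higher (Upk3a, 1.40 ± 0.13) and 1 lower (Chad, -1.60 ± 0.21), and the median was -0.10, against -0.02 over all genes. Their summed linear signal ran from 53384 to 55934 on the NDA arrays and from 53559 to 72155 on the feed control arrays.

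Most endothelial and alveolar type 1 markers were also lower in the NDA lungs, where Cyp2f2, Cyp4b1 and Fmo1 had differences between -0.23 and -0.21. All 10 endothelial markers were negative in NDA against feed control, with a median of -0.25 and 0 called, and their summed linear signal ran from 17595 to 18726 with NDA and from 19654 to 21896 in feed controls. Of 10 alveolar type 1 markers, led by Ager, Hopx and Cav1, 9 were negative, with a median of -0.16 and 0 called, and their sum ran from 51849 to 55058 with NDA and from 56532 to 59901 in feed controls. In each of these lists 4 of 10 genes had an unadjusted p under 0.05 in limma for at least 1 of the 4 chemicals, as had 33.9% of all genes. The sums did not overlap for either list. Ciliated cell markers went the other way, with 12 positive and 1 negative, a median of 0.15 and 0 called. Alveolar type 2 markers were positive for 2 and negative for 9. Of 10 alveolar macrophage markers, 4 were positive and 6 negative, and 2 were called higher, against 1.37% of all genes called. The part of the cell mixture in the differences of the monooxygenases was not tested.

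Cyp4b1, which activates 4-ipomeanol and hydroxylates fatty acids, had log2 signals of 12.56, 12.75 and 12.55 in the NDA lungs, against 12.85, 12.74 and 12.95 in the feed control lungs. The groups overlapped by 1 NDA array above 1 control array. The difference was -0.23 ± 0.10, with an adjusted p of 0.441 in limma. With NEDD, PCNB and benzofuran the Cyp4b1 differences were -0.03, 0.05 and 0.03, each with an SE of 0.10, and without benzofuran animal 10 the last was 0.06.

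Fmo1, which oxidises amines and sulfides and is the main flavin monooxygenase of liver in many species other than humans, had log2 signals of 11.43, 11.49 and 11.49 in the NDA lungs, against 11.78, 11.46 and 11.80 in the feed control lungs. In the benzofuran lungs it had 11.85, 11.76 and 11.55, against 11.66, 11.65 and 11.40 in the corn oil control lungs. Both pairs overlapped, with differences of -0.21 ± 0.12 for NDA and 0.15 ± 0.12 for benzofuran (adjusted p = 0.583 and 0.509, limma). Single arrays moved both: the NDA difference was -0.32 without feed control animal 28, and the benzofuran difference was 0.24 without benzofuran animal 10, 0.08 without benzofuran animal 6 and 0.07 without corn oil control animal 25. The NDA effect minus the benzofuran effect was -0.36 ± 0.16, with an unadjusted p of 0.0413 and an adjusted p of 0.525. No member was called in that difference of effects by limma, where 1 member and 9.34% of genes had an unadjusted p under 0.05 and 0.29% of genes were called.

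Cyp4b1 and Fmo1 followed each other across arrays. Their Pearson r was 0.838 over 18 arrays, 0.837 without benzofuran animal 10, and 0.778 for deviations from the group means, and each was among the 3 genes most like the other of all genes tested. These are arrays of whole lobes that share their cell mixture, and the endothelial marker list also followed both, with r of 0.632 for Cyp4b1 and 0.66 for Fmo1 over the same 18 arrays.

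Fmo2 is the flavin monooxygenase known as the main form of mammalian lung. Its log2 signal was 12.21, 12.37 and 12.35 in the NDA lungs, 12.29, 12.37 and 12.58 in the NEDD lungs, 12.49, 12.49 and 12.47 in the PCNB lungs, and 12.03, 12.29 and 12.59 in the feed control lungs. In the benzofuran lungs it was 12.57, 12.54 and 11.81, against 12.43, 12.41 and 12.33 in the corn oil control lungs. Benzofuran animal 10 was the lowest array of all. The benzofuran difference was -0.08 ± 0.17 with that array and 0.16 ± 0.13 without it, and neither was called (adjusted p = 0.826 and 0.695 in limma).

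Of the 5 Fmo2 probe sets, 4 gave their lowest value on the array of benzofuran animal 10, at 11.81, 11.35, 9.92 and 9.51, and the fifth, at 5.28 there, had signals of 4.60 to 5.48 and passed the filter percentile on 9 arrays only. That array also had the largest actin 3' minus 5' difference, and the part of RNA quality in the low Fmo2 values was not tested. The NDA difference from feed control was 0.01 for the probe set used and ran from -0.11 to 0.48 over the other 4, none of them called.

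**Figure D3:**
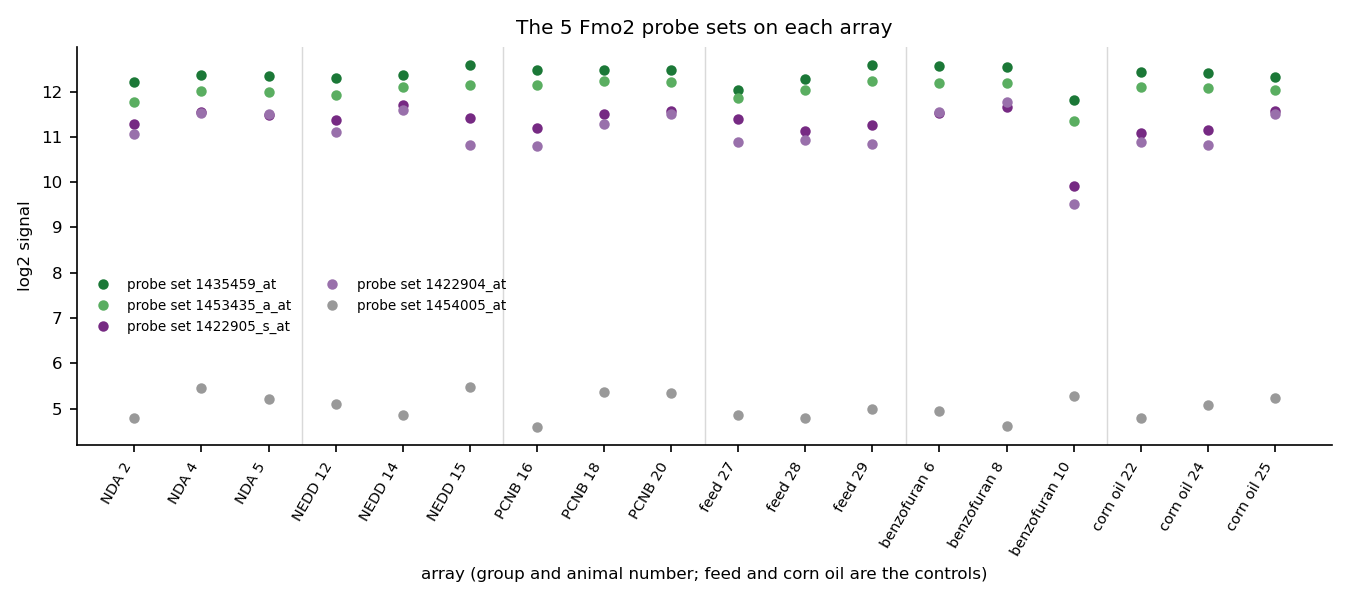
Log2 signal of the 5 Fmo2 probe sets on each of the 18 arrays, grouped by treatment and animal number. On the array of benzofuran animal 10 the upper 4 probe sets drop to between 9.51 and 11.81, and the fifth stays between 4.60 and 5.48 on all arrays.

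Cyp2e1 oxidises ethanol, benzene and other small solvents and is also present in fat. Its log2 signal was 8.07, 8.58 and 7.46 in the NDA lungs, 8.20, 7.84 and 8.03 in the NEDD lungs, 8.64, 8.81 and 8.10 in the PCNB lungs, and 7.85, 8.37 and 7.37 in the feed control lungs. In the benzofuran lungs it was 7.95, 8.28 and 9.28, against 8.00, 8.96 and 7.72 in the corn oil control lungs. All treated groups overlapped their controls, and over the 18 arrays the signal spanned 1.91 log2 units, against 0.39 to 0.87 for the other members. The largest difference was with PCNB, 0.65 ± 0.36 (95% interval -0.11 to 1.41), with an adjusted p of 0.9995 in limma, and it was 0.41 without feed control animal 29. With benzofuran it was 0.28 ± 0.36, and it ran from -0.11 (without benzofuran animal 10) to 0.65 (without corn oil control animal 24) when single arrays were left out.

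Cyp2e1 followed fat markers from animal to animal. The mean of 6 tested adipocyte markers of 10 listed, led by Fabp4, Adipoq and Lipe, had a Pearson r of 0.728 with Cyp2e1 over 18 arrays, 0.716 without benzofuran animal 10 and 0.785 for deviations from the group means. The arrays of feed control animals 28 and 29, for example, had Cyp2e1 signals of 8.37 and 7.37 and adipocyte list means of 0.51 and -0.58 after centring by gene. The summed linear signal of the list ran from 1313 to 2727 with NDA, 1192 to 2093 with NEDD, 1664 to 3273 with PCNB, 1273 to 3189 in feed controls, 1718 to 3212 with benzofuran and 1628 to 4334 in corn oil controls. Lep and Ucp1 did not pass the filter. The club cell and cardiac muscle lists also followed Cyp2e1, with r of 0.677 and 0.643, and a list of other Cyp4 enzymes gave 0.76. For deviations from the group means the ciliated cell list gave 0.738. The part of any of these tissues or cells in the Cyp2e1 level was not tested.

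**Figure D4:**
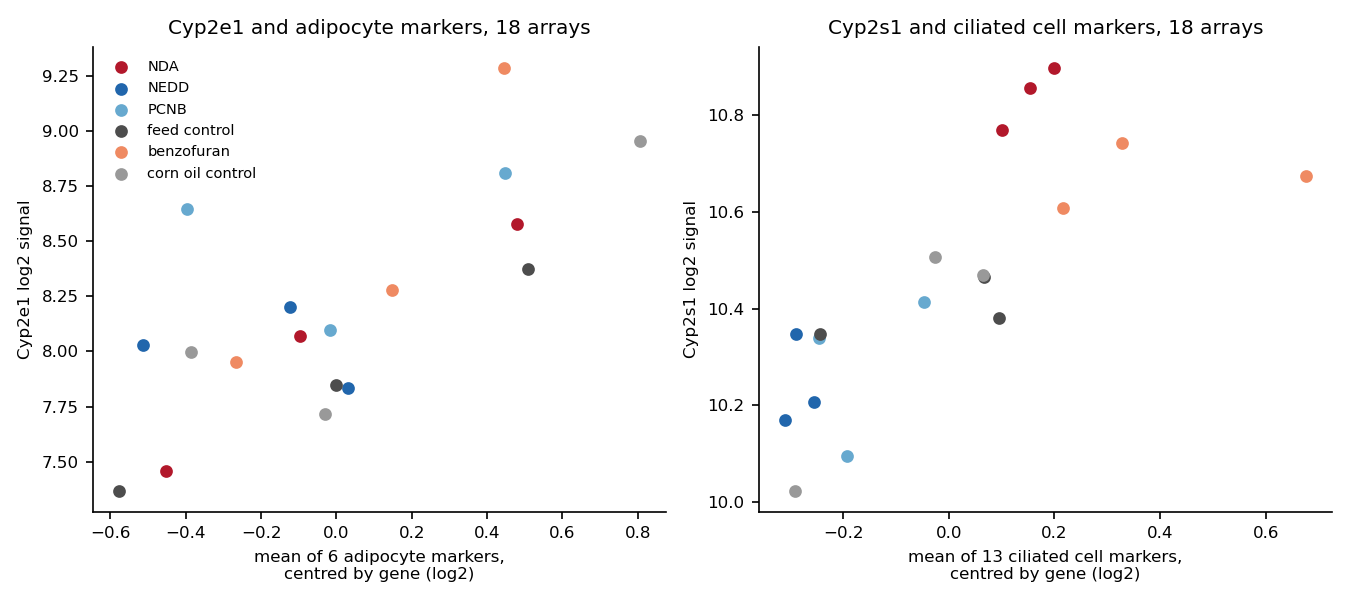
Left, log2 signal of Cyp2e1 against the mean of 6 adipocyte markers, centred by gene, and right, Cyp2s1 against the mean of 13 ciliated cell markers, on the same 18 arrays coloured by group. Cyp2e1 is spread along its markers within groups (r = 0.728). On the right the NDA and benzofuran arrays lie above and to the right of all others (r = 0.768). Their ciliated list means run from 0.10 to 0.20 with NDA and from 0.22 to 0.68 with benzofuran, and the highest of the others is 0.09.

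Cyp2b10, known in liver as the leading target of the receptor CAR, had log2 signals of 11.50, 11.70 and 11.86 in the NDA lungs, 11.48, 11.80 and 12.10 in the NEDD lungs, 11.53, 11.69 and 11.72 in the PCNB lungs, and 11.54, 11.69 and 11.87 in the feed control lungs. In the benzofuran lungs it had 11.46, 11.65 and 11.58, against 11.35, 11.74 and 11.80 in the corn oil control lungs. Every treated group overlapped its control, and the 4 differences ran from -0.07 to 0.09 with an SE of 0.15. With benzofuran it was -0.07 both with and without animal 10. The other 2 probe sets gave NDA differences of -0.02 and 0.09, against -0.01 for the one used.

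Cyp2d22, a mouse member of the subfamily that in humans metabolises many drugs, had log2 signals from 7.87 to 8.16 with NDA, 7.89 to 8.21 with NEDD, 7.89 to 8.04 with PCNB and 7.70 to 8.22 in feed controls. They ran from 7.89 to 8.21 with benzofuran and from 7.54 to 8.01 in corn oil controls. Its largest difference was with benzofuran, 0.23 ± 0.14 (adjusted p = 0.394, limma), and both of its probe sets gave that sign (0.23 and 0.26). It was 0.31 without benzofuran animal 10, 0.15 without benzofuran animal 6 and 0.10 without corn oil control animal 25, whose 7.54 was the lowest value.

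Counted over the 8 members, limma called 0 with NDA, where 1.37% of all genes were called, 3 members (Cyp2s1, Cyp2f2 and Cyp4b1) and 10.3% of genes having an unadjusted p under 0.05. With benzofuran it called 0 members and 1.73% of genes, and 1 member and 19.5% of genes had an unadjusted p under 0.05. NEDD and PCNB gave 0 called members, 0.0223% and 0.0149% of genes called, and 0 members with an unadjusted p under 0.05, against 9.44% and 2.97% of genes. Corn oil control against feed control gave 0 called members and 0 called genes, with 0 members and 2.02% of genes under an unadjusted p of 0.05. Arrays without overlap were found for 0 members with NEDD (7.23% of genes higher, 12.1% lower), PCNB (3.67% and 4.87%) and corn oil against feed control (2.32% and 4.91%), and for 0 members lower with benzofuran (4.32%). The median size of the difference, without its sign, was 0.19 for members and 0.11 for all genes with NDA, and 0.12 for members and 0.14 for all genes with benzofuran.

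Among the partners of these enzymes, 3 genes were called for any of the 4 chemicals against its control, all higher. They were 1 of 7 tested other Cyp4 enzymes and 2 of 8 tested electron donors and P450 partners. No gene of the other pathway lists was called. Of all genes, 1.37% were called with NDA and 1.73% with benzofuran. All 3 were also called in the contrast of the classes, which is built from the same NDA and benzofuran effects and called 3.49% of all genes. Cyp4f39, a fatty acid hydroxylase known from the skin barrier, rose by 0.72 ± 0.13 with NDA (adjusted p = 0.00337) and by 0.64 ± 0.13 with benzofuran (adjusted p = 0.0155). Cyb5a, cytochrome b5, which passes electrons to P450 enzymes, rose by 0.40 ± 0.10 with benzofuran (adjusted p = 0.0476). Pgrmc1, a heme-binding membrane protein that associates with P450 enzymes, rose by 0.48 ± 0.09 with benzofuran (adjusted p = 0.0114), all in limma. The benzofuran calls rest on the spread shared by all 6 groups: fitted on the benzofuran and corn oil arrays alone, the adjusted p-values were 0.272, 0.507 and 0.451. The Cyb5a call was also lost when any array of these groups but benzofuran animal 8 was left out, with adjusted p-values of 0.0675 to 0.175. The Cyp4f39 call was lost without corn oil control animal 22 (0.0833) or 24 (0.0627), and the Pgrmc1 call without animal 22 (0.0646).

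Cyb5a had log2 signals of 12.21, 12.15 and 12.24 in the NDA lungs and 12.26, 12.10 and 12.44 in the benzofuran lungs, against 11.76 to 11.98 in feed controls and 11.79 to 11.96 in corn oil controls. Like Cyp2s1, it was higher on all 6 arrays of the lung carcinogens than on all control arrays. Its NDA difference, 0.37 ± 0.10, did not pass the test (adjusted p = 0.0894, limma), and was called with array weights (0.42, adjusted p = 0.00203) and with the actin covariate (0.44, adjusted p = 0.0432). The class contrasts were 0.55 ± 0.11 for Cyp4f39, 0.38 ± 0.09 for Cyb5a and 0.43 ± 0.08 for Pgrmc1 (adjusted p = 0.00725, 0.0189 and 0.00376 in limma). These held under all 24 alternative settings, of which the compared groups alone repeats the main fit for this contrast.

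**Figure D5:**
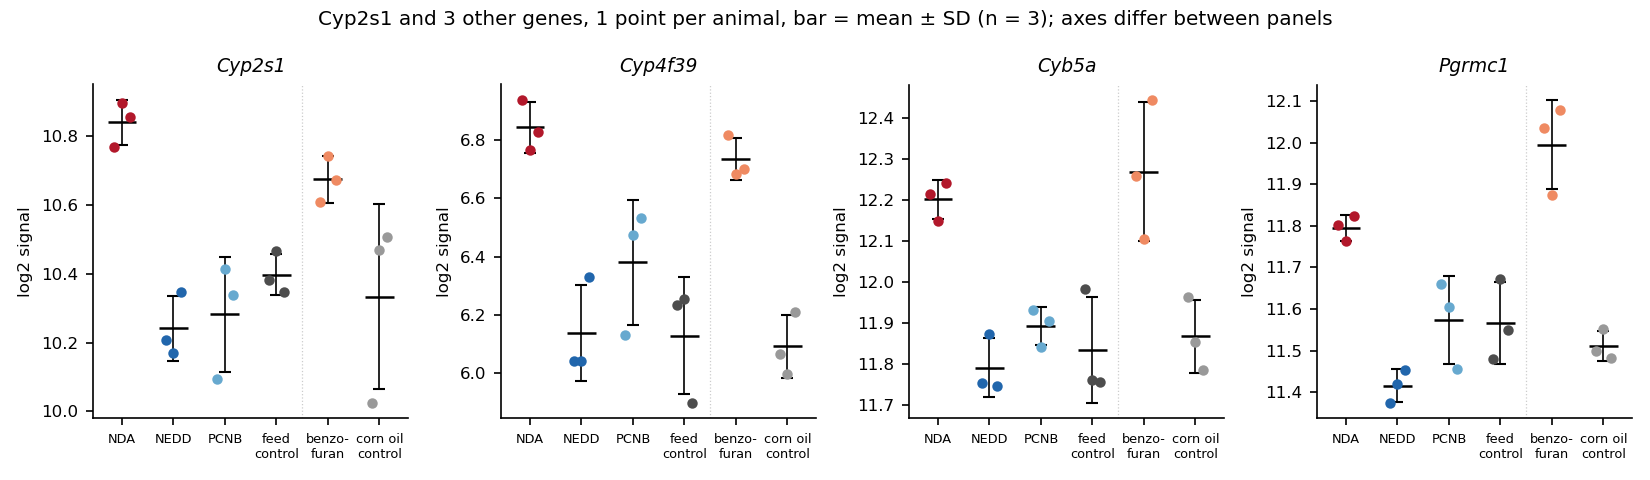
Log2 signal of Cyp2s1, Cyp4f39, Cyb5a and Pgrmc1 on every array, 1 point per animal, with the group mean and SD (n = 3). In each panel the 3 NDA and 3 benzofuran points lie above the points of the other 4 groups.

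The listed relatives were mostly below the filter. Of 45 other Cyp2 enzymes 30 were measured and 5 tested, and limma called 0 for any of the 4 chemicals, with 1 at an unadjusted p under 0.05 for at least 1 of them, as for 33.9% of all genes. Cyp2j9, a P450 of the epoxygenase subfamily, came closest, at 0.41 ± 0.11 with benzofuran (adjusted p = 0.0705), while Cyp2j6 (-0.31 ± 0.15 with NEDD) and Cyp2u1 (0.15 ± 0.12 with PCNB) were further from the threshold. Of 19 other Cyp4 enzymes 7 were tested, and Cyp4f39 was the 1 called with NDA and with benzofuran. At an unadjusted p under 0.05 there were 4 of 7 for at least 1 chemical and 3 of 7 in the contrast of the classes, the latter against 18.8% of all genes. Among them Cyp4a12a, singled out after its values were seen, had log2 signals of 3.62, 3.90 and 4.01 with NDA, against 4.89, 5.57 and 4.52 in feed controls, without overlap and not called (-1.15 ± 0.38, adjusted p = 0.195). Of these values only 5.57 lay above the filter percentile, which ran from 4.97 to 5.10 over the arrays. Fmo5 and Fmo4, the 2 other flavin monooxygenases tested of 5 listed, had their smallest p at -0.17 ± 0.12 with NDA and 0.13 ± 0.17 with PCNB. The means of Fmo4 (5.09) and Cyp2u1 (5.05) over 18 arrays also lay near the filter percentile.

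Heme synthesis had 0 of 7 tested genes called by limma for any of the 4 chemicals, and 6 with an unadjusted p under 0.05 for at least 1 of them, as for 33.9% of all genes. Its genes with the smallest p were Fech, the enzyme that inserts iron, at 0.71 ± 0.20 with NDA (adjusted p = 0.114), Alad, the dehydratase of the pathway, at 0.28 ± 0.09 with NDA (0.203), and Alas1, its rate-limiting enzyme, at 0.40 ± 0.14 with benzofuran (0.127). The median over the list was 0.23 with benzofuran, against 0.05 over all genes. Of 10 tested receptors and their partners 0 were called and 4 had an unadjusted p under 0.05 for at least 1 chemical, and the smallest p-values, all with benzofuran, belonged to the forkhead factors Foxa1 (0.33 ± 0.09, adjusted p = 0.0579) and Foxa2 (0.32 ± 0.10, adjusted p = 0.106) and to Cebpb (0.40 ± 0.13, adjusted p = 0.106). With array weights limma called Foxa1, Foxa2, Cebpb, Alas1, Alad and Cyp2j9 higher with benzofuran (adjusted p from 0.0144 to 0.0493), and Fech higher with NDA (0.0133) and NEDD (0.0468). Fech was also called with NDA in a fit to the compared groups alone (0.0364). Foxa1 was also called with benzofuran after centring of the arrays (0.0403), with the mean of all probe sets (0.0406) and with the actin covariate (0.035), and Cyp2j9 with the actin covariate (0.0346) and without benzofuran animal 8 (0.0272).

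Cyp2s1 moved with markers of ciliated cells. In the contrast of the classes all 13 tested markers of 15 listed were positive and 8 were called higher by limma, with a median of 0.62 against 0.03 over all genes. In that contrast 3.49% of all genes were called and 3.16% were called higher. Their summed linear signal ran from 10334 to 10923 with NDA, 8371 to 8726 with NEDD, 8323 to 9413 with PCNB and 8004 to 10642 in feed controls, and from 10916 to 14128 with benzofuran against 7987 to 10087 in corn oil controls. The NDA and feed control ranges overlapped, and the benzofuran and corn oil ranges did not. Of the markers with the highest signal, Dynlrb2 was called higher in the contrast (0.69 ± 0.17), and Tppp3 and Tubb4b were not. Cyp2s1 had r of 0.768 with the list mean over 18 arrays, 0.844 without benzofuran animal 10 and 0.534 for deviations from the group means. The last value was not particular to ciliated cells: deviations gave 0.627 with the hepatocyte list, 0.537 with the adipocyte list and 0.515 with the club cell list. The hepatocyte list rests on 4 tested genes near the filter. With the endothelial list, led by Cldn5, Ramp2 and Tek, the r of Cyp2s1 over 18 arrays was -0.802. That list was negative for 8 of 10 genes in the contrast, with 0 called and 5 at an unadjusted p under 0.05, against 18.8% of all genes. All 10 alveolar type 1 markers were negative in the contrast, with a median of -0.17 and 1 called lower (Cldn18, -0.38 ± 0.09). Of 15 club cell markers, 3 were called higher (Upk3a, Cckar and Aldh1a7) and 8 were positive. The part of the cell mixture in the Cyp2s1 difference was not tested.

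By likeness over the 18 arrays, the 3 genes closest to Cyp2s1 were Spint2 (r = 0.939), Gsto1 (0.92) and Susd2 (0.916), which gave 0.936, 0.928 and 0.913 without benzofuran animal 10. Gsto1, a glutathione transferase of the omega class, rose by 1.02 ± 0.15 with NDA and Susd2, a membrane protein, by 1.06 ± 0.12 (adjusted p = 0.000746 and 3.982e-05, limma). Closest to Cyp2f2 were Irgm2 (0.848), Myh7 (0.831) and Cbr2 (0.83), the last a carbonyl reductase of the lung. Closest to Cyp2e1 were Pdgfrl (0.799), Tmem45b (0.782) and Pgam2 (0.776), and closest to Cyp2b10 were Hbp1 (0.827), Lims2 (0.818) and Glul (0.798). Cyp2d22 was closest to Lgmn (0.871), Ttc17 (0.842) and Herc3 (0.79), Cyp4b1 to Dpep1 (0.864), Zfp30 (0.858) and Fmo1 (0.838), Fmo1 to Cyp4b1 (0.838), Arhgef6 (0.794) and Plxdc1 (0.762), and Fmo2 to Clip1 (0.894), Kidins220 (0.883) and Fhl1 (0.882). Without benzofuran animal 10 the values for Fmo2 were 0.793, 0.755 and 0.809, and those for Cyp2e1 were 0.725, 0.738 and 0.686. For Cyp2f2, Cyp2b10, Cyp2d22, Cyp4b1 and Fmo1 they then ran from 0.767 to 0.874.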

How the data were processed

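Total RNA from 18 lungs, 10 µg each, was hybridised to Affymetrix mouse arrays, per the labels' protocols, with integrity numbers of 8.3 to 9.4 for the 15 arrays that have one. NDA animal 5, NEDD animal 12 and corn oil control animal 22 have none. The OD260/280 ratios ran from 1.8 to 2.87, and were highest for PCNB animal 20 (2.87), NEDD animal 12 (2.66) and NEDD animal 15 (2.58). The deposited values are taken as log2 signals per probe set from their range of 2.48 to 14.78; the sources used here do not give the log base, the probe summary or the normalization, so folds assume base 2. Array medians ran from 5.68 to 5.80, and no further normalization was applied.

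Of 45101 probe sets, 34945 had a single symbol in the platform annotation, 932 several, 9160 none here, and 64 were controls. Each gene was its probe set of highest mean, and was tested if 3 or more arrays had it above their 40th percentile. One limma model (version 3.58.1, R 4.3.3) with a mean for each group took all 18 arrays and had 12 residual degrees of freedom; tests were two-sided, with Benjamini-Hochberg adjustment over 13434 genes within each of 8 comparisons and a threshold of 0.05. Labels name separate animals, so replicates are biological.

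Members, marker lists and pathway lists were chosen with earlier results of these data known. All members were described; of each pathway list the genes called for any of the 4 chemicals against its control were named, or otherwise the 3 with the smallest p, and of each marker list set beside a result those of highest mean; other marker genes named were singled out after their values were seen. Correlations over arrays are descriptions. Promoter windows come from RefSeq, GRCm38.p6; none was matched for Cyp2d22 and Fmo1. In simulated data for NDA against feed control, with 200 of 13434 genes changed, 59.6% of 1.5-fold and 95.6% of 2-fold changes were recovered, and for benzofuran against corn oil control 61.6% and 97.2%. Of 1.25-fold changes only 5.2% were recovered for NDA and 8.8% for benzofuran, so a missing call says little about changes of that size. Alternatives were median centring, no filter, the mean of all probe sets, the compared groups alone, array weights, leaving out each array and, added after seeing the data, the actin 3' minus 5' difference as a covariate.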

Additional observations from a re-analysis of the deposited data

Results flagged for a closer look

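The averaged effects of NDA and benzofuran and of NEDD and PCNB, each against its own control, differed in limma for 4 of the genes described here. The SE comes from the spread between animals within groups, so the p-values speak of these 4 chemicals only and not of carcinogens as a class. The log2 difference of effects was 0.53 ± 0.10 for Cyp2s1 (adjusted p = 0.00707), 0.55 ± 0.11 for Cyp4f39 (adjusted p = 0.00725), 0.38 ± 0.09 for Cyb5a (adjusted p = 0.0189) and 0.43 ± 0.08 for Pgrmc1 (adjusted p = 0.00376). In each gene all 6 NDA and benzofuran arrays lay above the other 12, as for 1.44% of all genes. The 4 genes were picked by their calls on these same arrays, so this separation is a description and not further evidence. Vehicle and dosing route differ between NDA and benzofuran, and each was compared with its own control.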

How the results depend on the processing

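No paired analysis was possible because no animal number occurs in more than 1 group. Of the 8 members, the contrast of the classes called 1 (Cyp2s1) under every alternative, and 0 were called with NEDD, with PCNB and in corn oil against feed control under every alternative. For the contrast of the classes the compared groups are all groups, so that alternative repeats the main fit. With only the compared groups in the fit, 1 member (Cyp2s1) was called with NDA, and the genes called were 283 with NDA, 0 with NEDD, 0 with PCNB, 5 with benzofuran, 507 between NDA and NEDD and 21 for the NDA minus benzofuran effect, against 184, 3, 2, 233, 285 and 39 with all arrays. With array weights, 1 member was called with NDA and 1 with benzofuran (Cyp2s1 in both) and 2 between NDA and NEDD (Cyp2s1 and Cyp2f2), and the genes called were 755 with NDA, 521 with NEDD, 1149 with benzofuran, 1813 between NDA and NEDD, 158 for the NDA minus benzofuran effect and 1873 for the classes, against 469 without weights. With the actin 3' minus 5' difference as a covariate, an alternative added after seeing the data, they were 364 with NDA, 1 with NEDD, 734 with benzofuran and 625 between NDA and NEDD. Leaving out single arrays gave 120 to 150 genes called with NDA, 0 to 3 with NEDD, 37 (without corn oil control animal 22) to 1054 (without benzofuran animal 8) with benzofuran, 0 to 1 in corn oil against feed control, 168 to 248 between NDA and NEDD, 23 to 61 for the NDA minus benzofuran effect and 300 to 868 for the classes, and 0 to 1 members between NDA and NEDD. Of 912 member values under an alternative, 87 had the other sign, all of them not called. The causes of these shifts were not tested.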
